A study of Mus musculus with 8 samples.

Results

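The 10 genes described here encode proteins that coat lipid droplets, form them or release fatty acids from them: Cidec, Cideb, Plin2, Plin3, Fitm2, Pnpla2, Abhd5, G0s2, Hilpda and Lipe. They were matched by symbol to the Ensembl identifiers of the count tables, which held 56980 identifiers, and all 10 were found. Of these, 9 passed the filter of at least 10 counts in at least 4 libraries, as did 15986 genes in all, and Hilpda did not. The family was chosen from earlier results of these same data, in which Cidec was already known to be lower in the knockouts, so the genotype values of the 10 genes are descriptions and not tests.

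RNA was sequenced from jejunal mucosal scrapings of 4 FFA2 fl/fl mice (floxed controls) and 4 Adipoq‐F2‐KO mice, all male. The paper housed mice of both genotypes together from birth until 12 weeks, and names littermate controls for its Western diet cohort. FFA2 is a receptor for short-chain fatty acids encoded by Ffar2, and in the knockouts an adiponectin promoter drives the Cre recombinase, so the receptor is lost from adipocytes and the level of Ffar2 in jejunum is no check of the deletion. Both groups carried the floxed alleles and received the same treatment, which was Western diet with 10% fructooligosaccharides (FOS) from 12 weeks of age, 2 weeks of feeding, and thermoneutral housing. The comparison asks whether deleting the receptor in fat cells is accompanied by different handling of fat in the gut.

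An enterocyte that takes up dietary fat rebuilds triglyceride in the endoplasmic reticulum, exports part of it in chylomicrons and holds the rest for a time in cytosolic lipid droplets. Perilipins cover the droplet surface, CIDE proteins promote fusion and growth of droplets or the lipidation of secreted particles, and FIT2 (Fitm2) helps droplets to leave the membrane in which they form. Breakdown begins with ATGL (Pnpla2), which is activated by CGI-58 (Abhd5) and held back by the small proteins G0S2 and HILPDA, and continues with hormone-sensitive lipase (Lipe).

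Total counts ranged from 6007654 to 21712776 per library. Floxed library 3 and Adipoq‐F2‐KO libraries 3 and 4 held fewer than 10000000 counts, and are called shallow here. The 12 villus enterocyte markers were above the floor of 3 raw counts in all 8 libraries, and their summed normalized count (raw counts scaled by each library's DESeq2 size factor) was 508613 to 590763 in floxed controls and 519459 to 553572 in knockouts. The 8 adipocyte markers summed to 17.8 to 39.7 in the 5 deep libraries, against 933 in floxed 3, 390 in Adipoq‐F2‐KO 3 and 344 in Adipoq‐F2‐KO 4, so the 3 shallow libraries also held the most adipocyte marker RNA. Floxed 3 held in addition the highest sum of 11 smooth muscle markers, 31949 against 3791 to 12989 in the other 7 libraries. Fewer cells of a type and less RNA per cell cannot be told apart in bulk tissue.

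The promoter letters of 3 genes are printed first: Cidec, the family member with groups that did not overlap, G0s2, the member with the widest spread, and Plin2, a coat gene whose window holds one of the motifs searched. They come from RefSeq (GRCm38.p6), run 5′ to 3′ on the minus strand, on which all 3 genes lie, and end before the start of transcription. Cidec has a window at each of 2 annotated starts. The windows of G0s2 and Plin2 are shortened where a first exon begins earlier. Capitals in Plin2 mark AGGTCA, the hexamer that nuclear receptors bind, as it reads on the opposite strand.
Cidec, upstream start, chr6:113435761-113436010: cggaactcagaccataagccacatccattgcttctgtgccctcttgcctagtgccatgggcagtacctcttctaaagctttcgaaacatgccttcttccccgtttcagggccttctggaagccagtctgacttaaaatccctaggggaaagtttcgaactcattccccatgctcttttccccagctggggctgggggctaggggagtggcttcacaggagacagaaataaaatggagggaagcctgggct
Cidec, downstream start, chr6:113434765-113435014: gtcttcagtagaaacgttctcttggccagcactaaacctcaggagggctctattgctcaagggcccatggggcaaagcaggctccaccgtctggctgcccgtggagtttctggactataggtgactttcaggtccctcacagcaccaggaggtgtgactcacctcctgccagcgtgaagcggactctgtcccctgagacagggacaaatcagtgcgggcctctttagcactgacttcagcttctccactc
G0s2, chr1:193273219-193273438: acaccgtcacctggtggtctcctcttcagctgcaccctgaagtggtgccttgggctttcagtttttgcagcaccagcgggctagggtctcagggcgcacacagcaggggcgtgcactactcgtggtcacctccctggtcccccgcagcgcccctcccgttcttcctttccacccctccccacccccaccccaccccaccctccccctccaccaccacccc
Plin2, chr4:86670061-86670309: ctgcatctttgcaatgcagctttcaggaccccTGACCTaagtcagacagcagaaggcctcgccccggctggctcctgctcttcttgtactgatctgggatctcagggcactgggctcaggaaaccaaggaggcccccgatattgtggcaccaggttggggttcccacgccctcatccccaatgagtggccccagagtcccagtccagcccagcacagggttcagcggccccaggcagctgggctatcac

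A search of 13 RefSeq windows of the 10 genes, both strands, found AGGTCA in 2 windows (Abhd5 and Plin2), against 14.02% of all 32851 windows of mouse genes. A direct repeat of AGGNCA with 1 base between the copies, the arrangement bound by PPAR with RXR, was in 0 of the 13 windows and in 0.338% of all windows. CACGTG was in the window of Lipe alone (6.02% of all windows), and ACGTG, the hypoxia response core that CACGTG contains, was in those of Hilpda and Lipe (16.6%). TATAAA was in that of Cideb (12.4%). A match describes these letters only and is not evidence of binding.

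How much of each gene the jejunum expressed was compared per length, as the normalized count per kb of annotated exon. Plin3 was the highest at 1191 ± 85.7 (SD, n = 8 libraries) and Cidec was next at 680 ± 144. Pnpla2 followed at 427 ± 40.3, Lipe at 283 ± 25.1 and Plin2 at 206 ± 54.0. The 4 droplet and lipase genes at the top stood above 89.4% or more of all tested genes on this scale.

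The lower part of the order began with G0s2 at 129 ± 117, a standard deviation almost as large as its mean. Cideb lay at 74.3 ± 9.86, Fitm2 at 39.6 ± 11.4 and Abhd5 at 38.7 ± 5.95 normalized counts per kb. Hilpda closed the order at 3.34 ± 2.71, and only 5.67% of tested genes were lower. Each gene was then compared with the next one down by an exact two-sided sign-flip permutation test of the log2 difference over the 8 libraries, adjusted by the Benjamini-Hochberg (BH) method over 9 pairs. The level of the upper gene was higher for 7 of 9 pairs, of which 6 held in 8 of 8 libraries, each with exact permutation p = 0.0078, the smallest possible, and BH p = 0.0117. Plin2 exceeded G0s2 in 6 of 8 libraries (exact permutation p = 0.0312, BH p = 0.0402). The pairs G0s2 and Cideb, and Fitm2 and Abhd5, did not differ beyond their spread (exact permutation BH p = 0.977 for each).

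The order depended on the length used for some genes. With the mean length of the annotated transcripts in place of the union of exons, Plin2 passed Pnpla2 and Lipe, Abhd5 passed G0s2, Cideb and Fitm2, and 5 of 9 neighbouring pairs differed. Plin3 and Cidec stayed first and second and Hilpda last on both length scales. Without any scaling by length, Lipe and Pnpla2 passed Cidec, and Lipe passed Pnpla2. On that scale Abhd5 and Fitm2 passed G0s2 and Cideb, Abhd5 passed Fitm2, and 6 of 9 pairs differed.

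**Figure D1:**
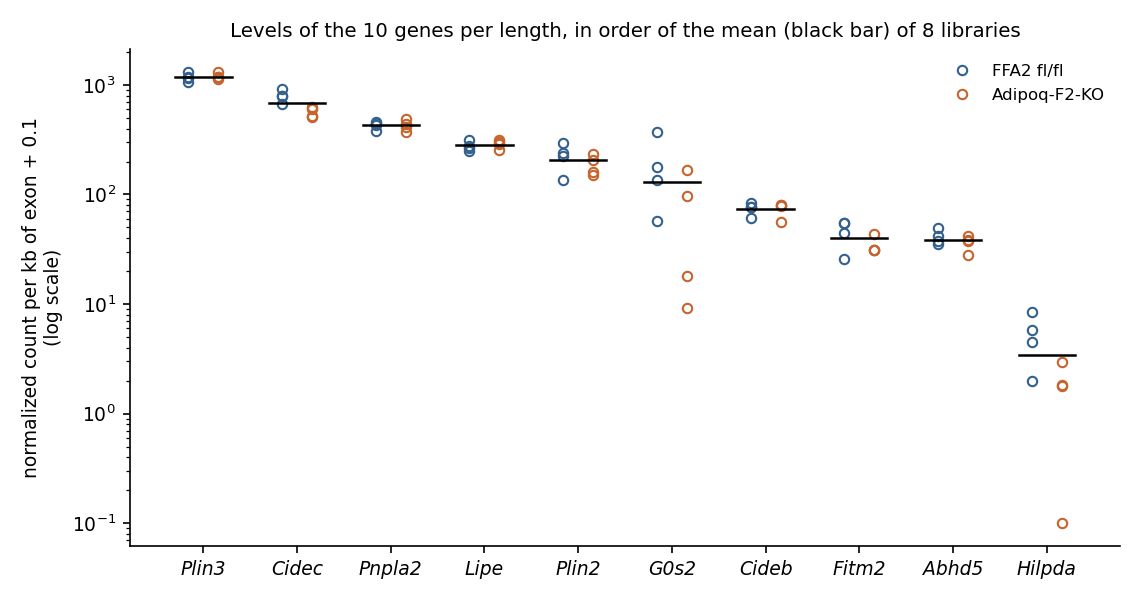
Normalized count per kb of exon plus 0.1 (log axis) of each gene in each of the 8 libraries, with floxed controls in blue, Adipoq‐F2‐KO in orange and the mean of 8 as a black bar. The levels fall from 1191 for Plin3 to 3.34 for Hilpda, the 2 colours separate for Cidec, and the points of G0s2 spread more widely than those of the other genes with higher levels.

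Cidec, which encodes a droplet fusion protein that lets droplets grow large, had normalized counts of 1468, 1462, 1242 and 1706 in floxed controls 1 to 4 (1470 ± 190, SD, n = 4). In Adipoq‐F2‐KO mice 1 to 4 it had 1130, 942, 1179 and 959 (1053 ± 120, n = 4). All 4 knockouts lay below all 4 controls, with the shallow floxed 3 the lowest control and the shallow Adipoq‐F2‐KO 3 the highest knockout. Fat cells also express Cidec, and floxed 3 had the largest adipocyte and smooth muscle marker sums, whose part in its Cidec value was not tested. The raw counts behind these values were 510 to 2774. The level in knockouts was 0.714 of that in controls, a DESeq2 log2 fold change of −0.49 ± 0.13 (SE) with a 95% interval of −0.74 to −0.23, and the BH adjusted p of the DESeq2 fit over all tested genes was 0.232. Of all 15986 tested genes, 163 or 1.02% had every knockout below every control, and Cidec was the only 1 of the 9 tested members among them.

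Cideb, a relative of Cidec that in liver and gut takes part in loading lipid onto secreted lipoproteins, had 123, 114, 115 and 91.3 normalized counts in floxed controls. The knockouts had 117, 83.7, 120 and 120. The groups overlapped, apart from a low value in Adipoq‐F2‐KO 2, with means of 111 ± 13.6 and 110 ± 17.8 (SD, n = 4 each) and a DESeq2 log2 fold change of −0.03 (95% interval −0.42 to 0.37). Of the 1488 exon bases of Cideb, 1136 are shared with Nop9 on the opposite strand, and since the strand setting of the counting is not given in the sources used here, the value of Cideb is uncertain.

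Plin2, the perilipin that coats most droplets outside fat tissue and is stabilised by their lipid, had 791, 832, 479 and 1044 normalized counts in floxed controls 1 to 4 (786 ± 233, SD, n = 4). In knockouts it had 531, 727, 827 and 564 (662 ± 139, n = 4). Floxed 3 was the lowest of all 8 libraries, and the groups overlapped. The DESeq2 log2 fold change was −0.25 with a 95% interval of −0.71 to 0.20.

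Plin3, the perilipin that reaches small nascent droplets from the cytosol, had 4031, 4487, 4364 and 4965 normalized counts in floxed controls. The knockouts had 4438, 4988, 4515 and 4298. Its groups overlapped and its spread was among the smallest of the family, with a coefficient of variation of 8.67% in controls and 6.57% in knockouts. The DESeq2 log2 fold change was 0.03, and the 95% interval of −0.16 to 0.22 bounds the genotype difference more tightly than that of any other member.

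Set against Plin3 in the same library, which removes any factor common to both genes, the Cidec level per kb was 0.743, 0.665, 0.581 and 0.701 of the Plin3 level in floxed controls (0.672 ± 0.069, SD, n = 4). In knockouts the ratio was 0.520, 0.385, 0.533 and 0.455 (0.473 ± 0.068, n = 4). The ranges of the ratio did not overlap. The Plin2 ratio to Plin3 was 0.118 to 0.227 in controls and 0.129 to 0.197 in knockouts and overlapped, as did the ratio of Cidec to Plin2, at 3.09 to 4.91 in controls and 2.45 to 4.03 in knockouts. The Cidec and Plin3 ratio restates the Cidec values for which the family was chosen, and no difference between ratios was tested.

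**Figure D2:**
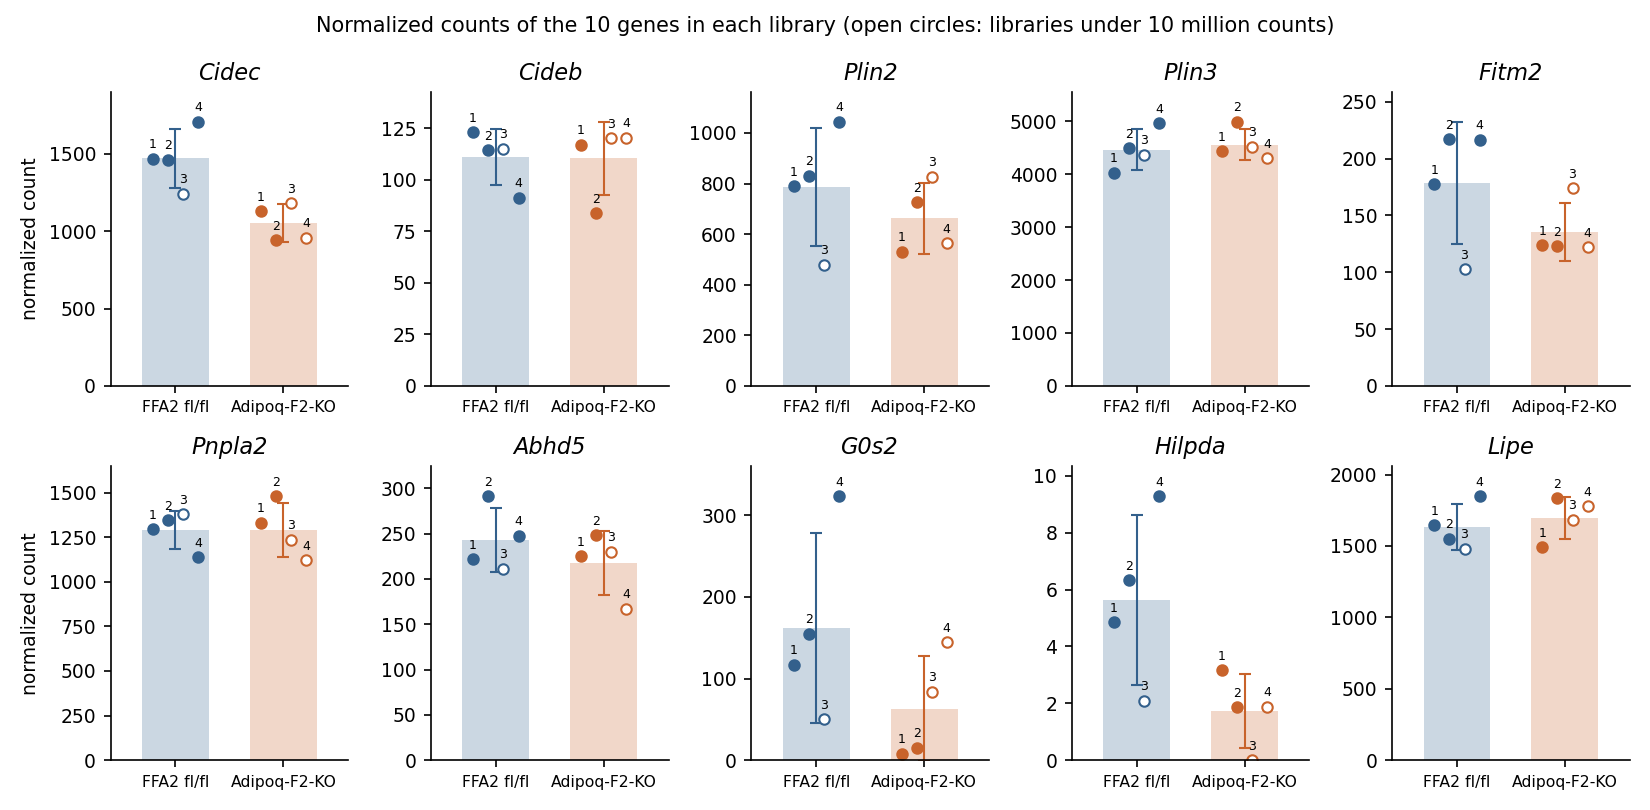
Normalized count of each of the 10 genes in the 8 libraries, numbered by replicate, with bars for the group mean, error bars for the SD (n = 4) and open circles for the 3 libraries under 10000000 counts. Cidec is the gene whose 4 knockout points (942 to 1179) all lie below the 4 control points (1242 to 1706), while the shallow floxed 3 is the lowest control for Cidec, Plin2, Fitm2, Abhd5, G0s2, Hilpda and Lipe.

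Fitm2, which encodes a membrane protein of the endoplasmic reticulum needed for normal droplet formation, had 178, 217, 102 and 217 normalized counts in floxed controls 1 to 4 (178 ± 54.0, SD, n = 4). The knockouts had 124, 123, 174 and 122 (136 ± 25.6, n = 4). Floxed 3 fell below every knockout and Adipoq‐F2‐KO 3 stood well above the other 3 knockouts, so the groups overlapped, as they did for Plin2, which was also lowest in floxed 3 and highest among knockouts in Adipoq‐F2‐KO 3. The DESeq2 log2 fold change was −0.43 with a 95% interval of −0.91 to 0.06.

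Pnpla2, the lipase that takes the first fatty acid from triglyceride, had 1296, 1346, 1380 and 1139 normalized counts in floxed controls. The knockouts had 1330, 1481, 1235 and 1120. The means of 1290 ± 107 and 1292 ± 152 (SD, n = 4 each) were almost equal and the groups overlapped. The DESeq2 log2 fold change was 0.01, with a 95% interval of −0.23 to 0.24.

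Abhd5, whose product CGI-58 activates ATGL, had 222, 291, 211 and 248 normalized counts in floxed controls and 225, 248, 230 and 167 in knockouts. The groups overlapped in all but the lowest knockout, the shallow library 4. The DESeq2 log2 fold change was −0.16 (95% interval −0.50 to 0.18). The ratio of Abhd5 to Pnpla2 levels per kb, activator over lipase, was 0.0776 to 0.110 in controls and 0.0757 to 0.0945 in knockouts, again with overlap.

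G0s2, the inhibitor of ATGL, varied the most. Its normalized counts were 117, 155, 50.2 and 323 in floxed controls 1 to 4, from 193, 294, 24 and 418 raw counts. In knockouts 1 to 4 they were 7.89, 15.5, 84.1 and 145, from 10, 25, 42 and 77 raw counts. The deep libraries of the 2 genotypes lay far apart, with 117 to 323 in 3 controls and 7.89 to 15.5 in 2 knockouts, whereas among the shallow libraries both knockouts were above the control. Over all 8 libraries the groups overlapped, with means of 161 ± 116 and 63.1 ± 64.3 (SD, n = 4 each). The coefficient of variation was 72.1% in controls and 102% in knockouts, 9.17 and 7.05 times what counting error alone gives. The DESeq2 log2 fold change was −1.37 ± 0.97 (SE), with a 95% interval of −3.26 to 0.52 that covers both a large decrease and no change.

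Fat cells express G0s2 at high levels, and the 3 shallow libraries held the most adipocyte marker RNA. Among them floxed 3, with the largest sum, had the lowest G0s2 of the controls, and Adipoq‐F2‐KO 3 and 4 had the highest G0s2 of the knockouts. Adipoq had 59, 27 and 12 raw counts in floxed 3, Adipoq‐F2‐KO 3 and Adipoq‐F2‐KO 4, and 0 to 3 in each deep library. The ratio of G0s2 to Adipoq in these 3 libraries was 0.407, 1.56 and 6.42. The part of adipocyte RNA in the G0s2 values was not tested by these ratios. A covariate was formed from the mean log2 level of the 3 adipocyte markers that passed the count filter, which Adipoq did not. With this covariate, the DESeq2 log2 fold change of G0s2 was −2.13 (adjusted p = 0.9999). Depth and adipocyte RNA moved together over these libraries and cannot be told apart.

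Hilpda, an inhibitor of ATGL known for its induction by hypoxia and fatty acids, was close to the limit of detection. It had 8, 12, 1 and 12 raw counts in floxed controls and 4, 3, 0 and 1 in knockouts, which are 4.85, 6.32, 2.09 and 9.29 against 3.16, 1.86, 0 and 1.88 normalized counts. The knockouts were low, but the shallow floxed 3 lay among them and 3 of 4 knockouts were at or under 3 raw counts. Its spread was 1.26 times counting error in controls and 0.861 times in knockouts, and the gene did not pass the filter. In the DESeq2 fit without the filter its log2 fold change was −1.61 with a 95% interval of −3.42 to 0.19, so a difference could not be resolved at this depth. Floors and counting errors cover counting only, since the reads carried no molecular identifiers.

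Lipe, hormone-sensitive lipase, which acts mainly on diglyceride and cholesteryl ester, had 1645, 1549, 1481 and 1849 normalized counts in floxed controls. The knockouts had 1493, 1833, 1684 and 1777. The groups overlapped, with a DESeq2 log2 fold change of 0.05 and a 95% interval of −0.17 to 0.27. Lipe shares 918 exon bases with the antisense gene 4732471J01Rik, whose total over all libraries was 499 counts.

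The inhibitor and the lipase it acts on were set against each other in each library. The ratio of G0s2 to Pnpla2 levels per kb was 0.313, 0.399, 0.126 and 0.985 in floxed controls and 0.0206, 0.0363, 0.236 and 0.448 in knockouts. The ratio was lowest in the 2 deep knockouts, but the groups overlapped through the shallow libraries. The ratio of Lipe to Pnpla2 was 0.550 to 0.833 in controls and 0.576 to 0.814 in knockouts, and the groups overlapped. A genotype difference in this ratio was not tested.

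**Figure D3:**
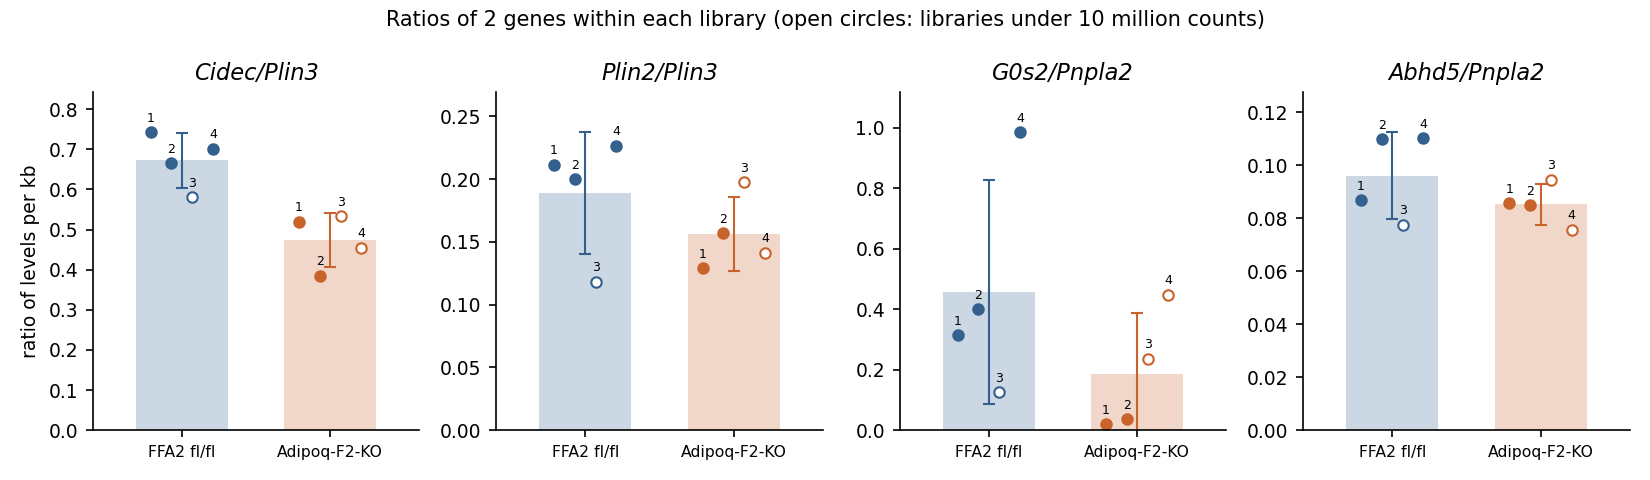
Ratio of the normalized counts per kb of 2 genes within each library, numbered by replicate, with bars for the group mean, error bars for the SD (n = 4) and open circles for libraries under 10000000 counts. The ratio of Cidec to Plin3 separates the genotypes (0.581 to 0.743 against 0.385 to 0.533), and the other 3 ratios overlap.

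As a family, 6 of the 9 tested members had a negative log2 fold change, with a median of −0.16, while 51.5% of all tested genes were negative with a median of −0.01. The DESeq2 fit of all 8 libraries called 0 of 9 members at an adjusted p under 0.05, and it called 0.00626% of all tested genes as lower in knockouts. At an unadjusted p under 0.05 the count was 1 of 9 members, Cidec, and 3.03% of all tested genes. edgeR's quasi-likelihood test and limma-voom also called 0 of 9, with 1 and 3 members at an unadjusted p under 0.05, against 3.48% and 4.30% of all tested genes. The members and the contrast are those the family was chosen on, so nothing is read from these counts.

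With DESeq2, the number of members called changed with the libraries used. In the 5 deep libraries, 3 controls against 2 knockouts, DESeq2 called 3 of 9 members as lower, against 0.256% of all tested genes called lower. These were Cidec (log2 fold change −0.58, DESeq2 BH adjusted p = 0.0235), Fitm2 (−0.73, 0.0493) and G0s2 (−4.07, 3.3e-11). edgeR's quasi-likelihood test on the same 5 libraries gave nearly the same log2 fold changes, −0.57, −0.72 and −4.03, and called 0 of 9 members and 0 genes in all, with BH adjusted p-values of 0.709, 0.643 and 0.347. By either tool 4 of 9 members had an unadjusted p under 0.05 in these libraries, against 5.405% of all tested genes with DESeq2 and 6.20% with edgeR. The calls thus rested on the tool as well as on the libraries. Plin2 had a log2 fold change of −0.50 there with a DESeq2 BH adjusted p of 0.445. Without floxed 3 alone, DESeq2 called 1 of 9 members, Cidec (log2 fold change −0.56, adjusted p = 0.0049), against 0.313% of all tested genes called lower. Plin3, Pnpla2, Cideb, Abhd5 and Lipe stayed within −0.14 and 0.15 on the log2 scale in the deep libraries.

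**Figure D4:**
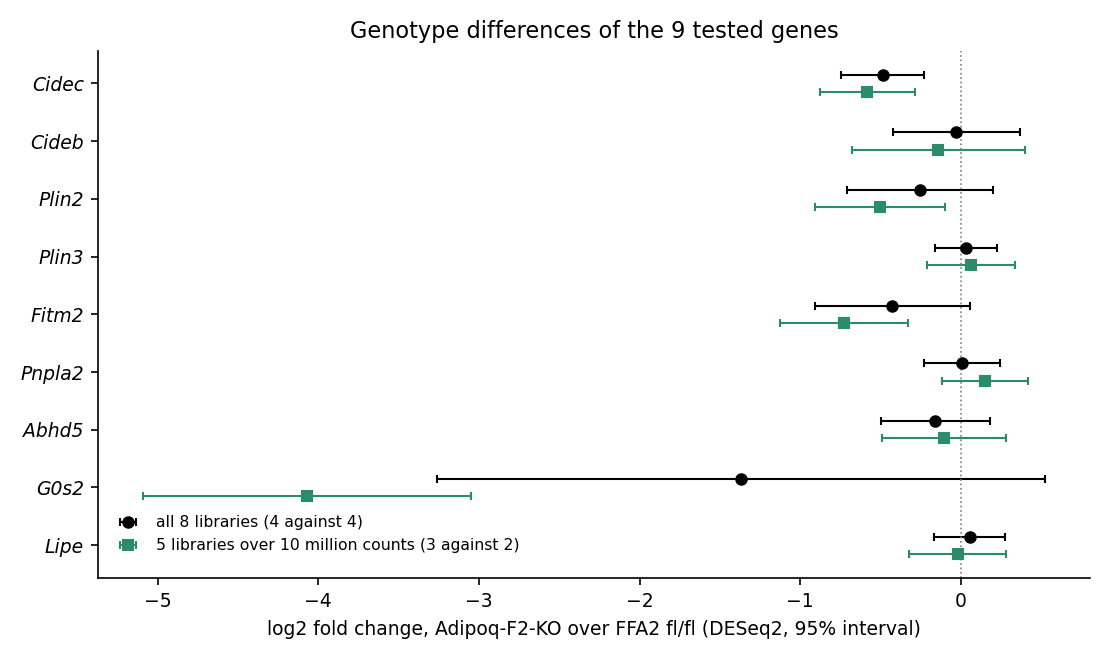
DESeq2 log2 fold change, Adipoq‐F2‐KO over floxed controls, with 95% intervals for the 9 tested genes, in all 8 libraries (black circles) and in the 5 libraries over 10000000 counts (green squares). The value of G0s2 moves from −1.37 to −4.07 and those of Cidec, Plin2 and Fitm2 move down by less, while Plin3 and Lipe remain near 0.

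Tissue content was followed beside these values. The smooth muscle markers, highest in floxed 3, had negative log2 fold changes for 11 of 11 genes (median −0.92, 0 called), and the villus enterocyte markers for 9 of 12 (median −0.04, 0 called). Of the adipocyte markers 3 of 8 could be tested and all 3 were negative (median −0.22, 0 called). No gene of the 3 lists had an unadjusted DESeq2 p under 0.05. None of these markers was at 0 in every library, but Adipoq was at 0 in floxed 4 and Adipoq‐F2‐KO 1. A score per library, the mean gene-centred log2 normalized count of the tested markers of a list, then served as a covariate. The log2 fold change of Cidec was −0.46 with the smooth muscle score, −0.49 with the villus score and −0.44 with the adipocyte score. Fitm2 was at −0.37, −0.43 and −0.31 in the same 3 fits, and Plin2, at −0.25 without a covariate, was at −0.17, −0.27 and −0.12.

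Markers of immune and dividing cells were read in the same way. Macrophage markers had a positive log2 fold change for 9 of 10 genes (median 0.54), lymphocyte markers for 6 of 8 (median 0.59) and proliferation and crypt markers for 6 of 10 tested (median 0.14), and DESeq2, edgeR and limma-voom called 0 genes in any of the 3 lists. At an unadjusted DESeq2 p under 0.05 were 2 macrophage genes, 1 lymphocyte gene and 2 proliferation genes. Among them Mki67, a protein of dividing cells, had a log2 fold change of 0.35 and Top2a, the topoisomerase of dividing cells, of 0.33. The macrophage marker Lyz2 was at 0.95 and the T cell marker Cd4 at 1.10. The part of these cells in the values of the 10 genes was not tested.

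**Figure D5:**
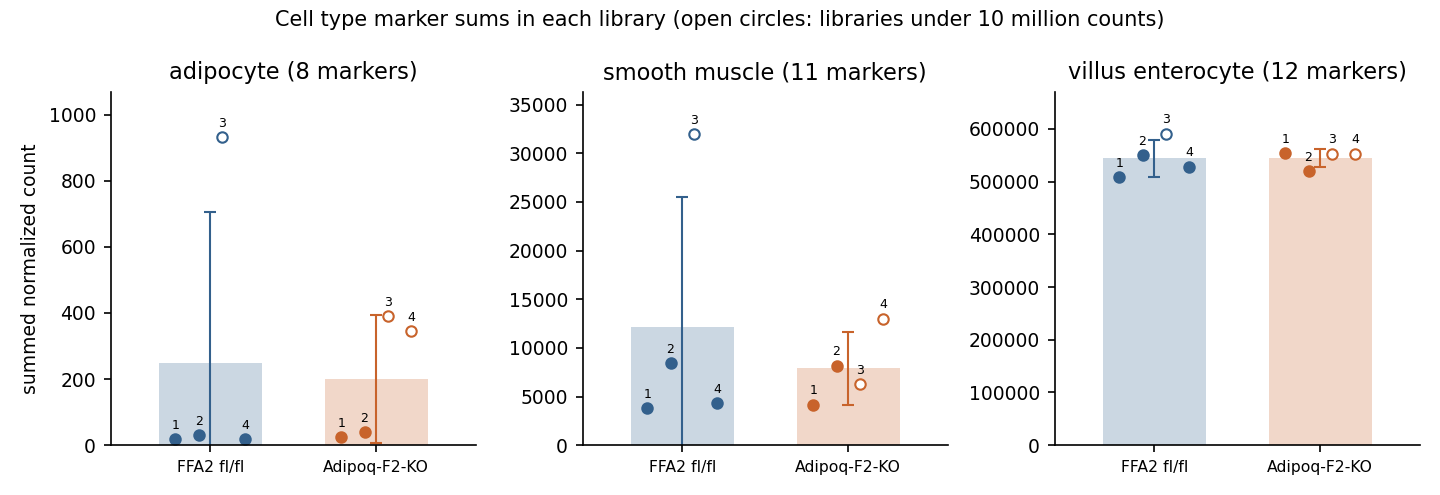
Summed normalized count of 3 marker lists in the 8 libraries, numbered by replicate, with bars for the group mean, error bars for the SD (n = 4) and open circles for libraries under 10000000 counts. The adipocyte sum is 344 to 933 in the 3 shallow libraries and under 40 in the others, the smooth muscle sum is highest in floxed 3, and the villus enterocyte sum differs little.

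The other proteins of droplets and lipolysis gave the surroundings of the 10 genes, and DESeq2, edgeR and limma-voom called 0 of them in all 8 libraries. Their counts of negative genes can be read beside the 51.5% of all tested genes. Of the 4 remaining coat proteins only Plin4 could be tested, with a log2 fold change of −0.36 ± 0.88 (SE). Plin1 and Plin5, the perilipins of fat and oxidative tissue, totalled 50 and 56 raw counts over the 8 libraries, and Cidea, a fusion protein of brown fat, totalled 6.

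Other neutral lipid hydrolases were negative for 15 of 18 tested genes, with a median log2 fold change of −0.11 and 1 gene at an unadjusted DESeq2 p under 0.05. That gene was Ces1d, a carboxylesterase of the droplet and endoplasmic reticulum, with 274, 106, 121 and 36.4 normalized counts in controls and 61.6, 27.9, 84.1 and 41.4 in knockouts. The groups overlapped, and its log2 fold change of −1.34 ± 0.51 (SE) had a DESeq2 adjusted p of 0.9998. Ces2a, an intestinal carboxylesterase, was at −0.71 and Pnpla7, a lysophospholipase, at 0.40.

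Genes for droplet formation and surface proteins divided evenly, 9 negative and 9 positive of 18 tested (median 0.01). Acsl3, the acyl-CoA synthetase of nascent droplets, had a log2 fold change of 0.60 and was the only gene of this list at an unadjusted DESeq2 p under 0.05. The sterol enzyme Sqle was at 0.39 and Pcyt1a, which supplies phosphatidylcholine for the surface, at 0.18. Hormonal control of lipolysis had 11 positive of 16 tested genes (median 0.05). Irs2, an adaptor of the insulin receptor, had 940 to 1616 normalized counts in controls and 1460 to 2376 in knockouts (log2 fold change 0.51) and was likewise the only such gene of its list, while the phosphodiesterase Pde4d was at 0.15 and the kinase Akt1 at 0.10.

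Transcription factors known to regulate these genes were negative for 12 of 16 (median −0.09). Ppargc1a, a coactivator of PPAR and other nuclear receptors, went the other way, with 2158, 2049, 2192 and 2196 normalized counts in controls and 2807, 2715, 2385 and 2685 in knockouts. All 4 knockouts lay above all 4 controls, and the share of all tested genes with this pattern was not counted. Its log2 fold change was 0.30 ± 0.08 (SE) with a DESeq2 adjusted p of 0.232, and it was the only gene of these lists that DESeq2 called in the deep libraries, where edgeR called 0 genes in all. Nr1h3, the liver X receptor alpha, was at −0.28 with 3 of 4 knockouts below all controls, and Hnf4a, a factor of enterocyte identity, at 0.19.

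Genes with the pattern most like a member were found by Pearson's r of log2 deviations from the genotype mean over the 8 libraries, among 8112 genes with a mean normalized count of at least 100. For Cidec they were Xrcc6 (r = 0.981), Tnrc6a (0.974), Gm24336 (0.961), Rassf6 (0.961) and Kif24 (0.958). The pattern of Plin2 was most like that of Mlycd (r = 0.988), followed by Spns2 (0.983), Slc25a42 (0.980), Crtc1 (0.979) and Paqr9 (0.976). Mlycd encodes malonyl-CoA decarboxylase, an enzyme that relieves the brake on mitochondrial fatty acid oxidation, and Slc25a42 a mitochondrial coenzyme A carrier. The 8 points share library depth and tissue content, and the values are the highest of many, so they are a description only.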

How the data were processed

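RNA from jejunal mucosa was analysed in 4 libraries of each genotype. Libraries were polyadenylated, made with a stranded kit and read single-end. Per the submitters' processing notes, the authors used Trimmomatic, STAR, featureCounts and DESeq2 with GRCm38/mm10, and the deposited values are raw counts per Ensembl gene, neither normalized nor pooled. Versions, annotation release and strand setting are not given in the sources used here.

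Symbols, exon lengths and overlaps were taken from GENCODE M21, in which 52073 of 56980 identifiers were found. The 15986 genes that reached 10 counts in 4 or more libraries were tested with DESeq2 1.42.0 in R 4.3.3 (genotype as the only term, two-sided Wald test, BH adjustment, threshold 0.05). An adjusted p was missing for 8 of them. Alternatives used edgeR 4.0.16 and limma 3.58.1. The DESeq2, edgeR and limma-voom fits of 8 libraries with genotype alone were tested on simulated data, and the other alternatives were not. Groups and replicate numbers came from the sample titles. Each library is taken as 1 mouse, and p-values measure the spread between these libraries. Pairs of libraries of a genotype differed by more than counting noise.

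The members and lists were chosen with earlier results of these data known. Named genes were all 10 members, the 3 genes of smallest p per list, and the 5 genes most like Cidec and most like Plin2. One result that this rule covers is not reported here.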

Additional observations from a re-analysis of the deposited data

Results flagged for a closer look

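In 20 groups of 4 libraries (10 genes in 2 genotypes), 2 single libraries stood apart from the other 3 of their group by Dixon's test at the 95% level, which by chance marks 5% of groups. The lowest Cideb value of the knockouts, 83.7 normalized counts in Adipoq‐F2‐KO 2, was separated from the next by 0.905 of the range of the group. The highest Fitm2 value of the knockouts, 174 normalized counts in the shallow Adipoq‐F2‐KO 3, was separated by 0.967 of the range. The cause was not tested for either.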

How the results depend on the processing

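Over 20 alternatives the log2 fold change of G0s2 ran from −4.07 to −0.78, against −1.37 in the main fit. It was −4.07 in the deep libraries (−4.03 with edgeR), −2.63 with limma-voom, −2.13 with the adipocyte covariate, −2.21 without Adipoq‐F2‐KO 4 and −0.78 without floxed 4. Plin2 ran from −0.50 to −0.09, with −0.43 without floxed 3, −0.16 without Adipoq‐F2‐KO 1 and −0.09 without floxed 4. Fitm2 and Abhd5 were negative in all 20 (−0.73 to −0.31 and −0.23 to −0.06), while Cideb, Plin3, Pnpla2 and Lipe changed sign within −0.14 and 0.16. The log2 fold change of Cidec was negative in all 20 alternatives (−0.58 to −0.41, adjusted p 0.0049 to 0.99997) and was called in 2 of them, the deep libraries (−0.58) and, when 1 library was left out (−0.56 to −0.41), without floxed 3. Members called numbered 3 in the deep libraries, 0 to 1 when 1 library was left out, and 0 in the other alternatives. Calls over all genes were 6 in the main fit, 2 with edgeR, 1 with limma-voom, 3 without a filter, 78 in the deep libraries, 29 with the villus covariate, 3 with villus size factors and 2 to 103 when 1 library was left out, the last without floxed 3. They were 3 with the adipocyte covariate and 0 in the deep libraries with edgeR, both chosen after seeing the data. Same-numbered libraries did not deviate together (r = −0.423 to 0.542), and a replicate block gave 11 calls, none of a member, and −0.48 for Cidec. The numbers are those of the sample titles, which state no pairing of mice, so neither check can show whether mice were paired. Neighbouring levels that differed numbered 5 to 7 of 9. Hilpda was limited by its low counts, and the cause of these shifts was not tested.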
